A study of Macaca fascicularis with 16 samples.

Results

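The genes that copy DNA and supply its nucleotides were followed in the endometrium of postmenopausal cynomolgus macaques (Macaca fascicularis) given estradiol, tamoxifen or both. The set held 45 genes named by their role in DNA replication, with the genes of the MCM helicase left out. A gene was counted as measured where the array's annotation gives its symbol alone to a probe set, and was followed through the probe set with the highest mean over all arrays. Of the 45 genes, 33 were annotated in this way and 29 passed the filter on dim probe sets, against 10705 genes tested in all. ORC1, CDC6, RFC3 and UHRF1 were annotated but fell below the filter, and 12 genes had no probe set under their own symbol: CDC7, RFC4, POLE, POLE3, PRIM1, PRIM2, ORC6, RPA1, FEN1, LIG1, RRM2 and TK1.

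All 16 animals were postmenopausal females, randomized to parallel arms of 4 and treated for 4 months. The estradiol arm was given 0.25 mg of micronized estradiol per 1800 kcal of diet, and the tamoxifen arm received tamoxifen, a selective estrogen receptor modulator, at 20 mg per 1800 kcal. The combination arm received both drugs at these doses, and the control arm received placebo. Each animal gave 1 endometrial sample and 1 array, designed for the related rhesus macaque.

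Before a cell divides, the origin recognition complex marks the places where copying starts, and CDC6 and CDT1 load the MCM helicase there. CDC45 and the GINS complex then switch the helicase on, and DNA polymerases copy both strands, held to the DNA by the ring-shaped clamp PCNA. Ribonucleotide reductase and thymidylate synthase supply deoxynucleotides, and chromatin is rebuilt behind the fork. Estrogen is known as the hormone that drives growth of the endometrium, in which tamoxifen acts as a partial estrogen agonist.

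Values below are the deposited array signals, in arbitrary units set on a linear scale, which may be compared between arrays for 1 gene but not between genes. A change is a difference of arm means of log2(signal + 4.80), with its standard error (SE) and adjusted p from 1 limma model of the 16 arrays; p was adjusted by Benjamini-Hochberg over 31659 probe sets, with a threshold of 0.05. The arrays had a common trimmed mean of 250.01 and median signals from 58.7 to 70.3. Precision is limited by the 4 arrays in each arm.

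The tissue markers differed between the arms. Epithelial markers had a summed signal of 7230 to 12373 with estradiol, 6907 to 13129 with tamoxifen, 7639 to 9788 with the combination and 5292 to 5706 in the controls, over 11 annotated of 16 listed genes. Stromal markers summed to 52518 to 58344, 42345 to 53906 and 38081 to 48952 in these treated arms and to 37109 to 39916 in the controls, over 12 of 14 genes. Smooth muscle markers summed to 8799 to 62603 with estradiol, where array 4 was lowest, 29927 to 73582 with tamoxifen, where array 1 was lowest, 59623 to 65965 with the combination, and 50434 to 60822 in the controls. No marker of these lists was at 0 on any array. For the actin control probe sets, the 3' signal over the 5' signal reflects RNA integrity and labelling, and its log2 averaged 0.57 ± 0.18 with estradiol, 0.52 ± 0.043 with tamoxifen, 0.55 ± 0.075 with the combination and 0.92 ± 0.11 in the controls (SD, n = 4 each).

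The comparison of estradiol with placebo asks which parts of the replication machinery followed the hormone alone. With estradiol 11 of the 29 genes were higher and 3 lower. Over all genes tested 16.5% were higher and 13.2% lower. The higher genes were ORC3, CDT1, GMNN, CDC45, GINS1, GINS2, POLD2, PCNA, TYMS, TIPIN and CHAF1A, and the lower ones ORC4, POLE2 and CLSPN. The median change of the 29 genes was 0.31, against 0.011 over all genes tested. Every estradiol array lay above every control array for 9 of the 29 genes and below for 3, against 15.4% and 13% of all genes. CDT1, CDC45 and CHAF1B passed the filter only because the estradiol arm was counted in it: their mean log2 over the other 3 arms was 5.17, 5.27 and 5.21, under the 5.36 of the dimmest probe set tested. Without these 3 genes, 9 of 26 were higher and 3 lower with estradiol, with a median change of 0.17. The estradiol arrays were then all above the controls for 7 of 26 genes and all below for 3. These are whole pieces of tissue, in which fewer cells of a type and less RNA per cell cannot be told apart. Epithelial markers were higher in 5 of 9 tested genes and stromal markers in 7 of 12, and endothelial markers were lower in 6 of 10. The part of these in the change of the replication genes was not tested. With the actin ratio as a covariate 2 of the 14 calls were left, those of GMNN and CHAF1A, in a fit that called 12.4% of all genes. The covariate lies close to the split between controls and treated arms, at 0.76 to 1.02 in the controls and 0.41 to 0.83 on the treated arrays.

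**Figure D1:**
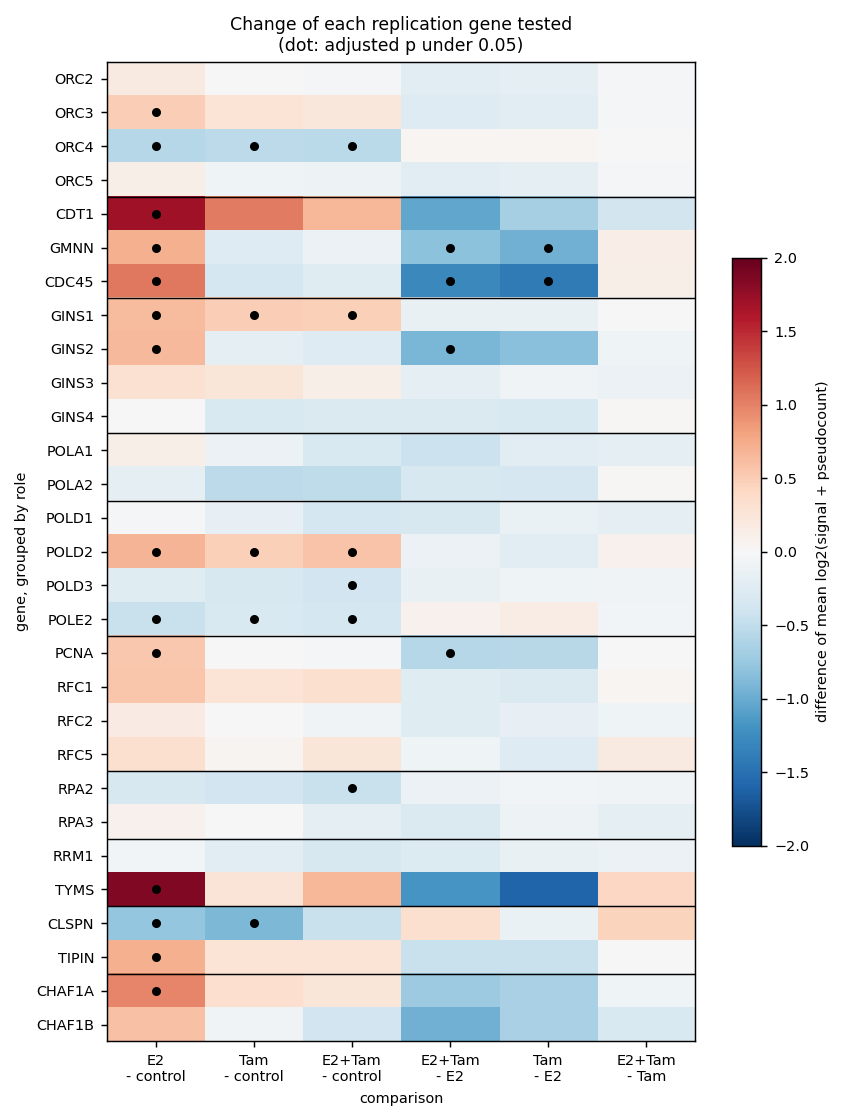
Changes of the 29 tested replication genes in each comparison, on the log2(signal + 4.80) scale, with genes ordered by role, E2 for estradiol, Tam for tamoxifen and E2+Tam for the combination. Colour is the change and dots mark adjusted p under 0.05. The changes with estradiol against control run from -0.78 for CLSPN to 1.85 for TYMS, and the combination lies below estradiol in 26 of 29 genes.

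All 3 licensing and firing genes tested were higher with estradiol, but CDT1 and CDC45 entered the tests through that arm, as given above. CDT1, which loads the MCM helicase onto origins, had signals of 90.2, 76.8, 51.6 and 82.7 with estradiol, 54.6, 22.1, 55.0 and 58.7 with tamoxifen, 20.2, 44.5, 35.0 and 39.7 with the combination, and 5.77, 14.5, 35.8 and 37.1 in the controls. All estradiol arrays were above all controls, while the tamoxifen and combination arrays overlapped them and 2 of the controls were dim. The change with estradiol was 1.70 (SE 0.41, adjusted p = 0.00702), a 3.24-fold rise on this scale.

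GMNN encodes geminin, the protein that binds CDT1 and blocks a second round of licensing. It had 486, 559, 503 and 676 with estradiol, 367, 224, 272 and 273 with tamoxifen, 243, 299, 319 and 391 with the combination, and 309, 358, 408 and 282 in the controls. The estradiol arrays stood above the arrays of every other arm, and the other arms overlapped. GMNN rose by 0.71 with estradiol (SE 0.18, adjusted p = 0.00873).

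For CDC45, the helicase co-factor, signals were 99.9, 129, 56.0 and 78.9 with estradiol, 46.4, 19.9, 35.5 and 23.4 with tamoxifen, 33.6, 27.9, 34.7 and 35.8 with the combination, and 51.5, 34.7, 26.4 and 51.2 in the controls. The estradiol arrays again lay above all others, with array 3 closest to them. The change was 1.05 (SE 0.28, adjusted p = 0.0129).

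The GINS complex joins CDC45 in the active helicase, and 2 of its 4 subunits rose. GINS1 had 1010, 946, 950 and 964 with estradiol, 998, 830, 734 and 971 with tamoxifen, 904, 715, 886 and 1009 with the combination, and 609, 633, 729 and 542 in the controls. All 3 treated arms were high, and a single combination array, at 715, fell below the highest control. GINS1 was higher by 0.63 with estradiol (SE 0.12, adjusted p = 0.00219), 0.49 with tamoxifen (SE 0.12, adjusted p = 0.0189) and 0.48 with the combination (SE 0.12, adjusted p = 0.0177). The calls with tamoxifen and the combination were lost in 3 and 2 of 8 fits without 1 array.

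GINS2 had 196, 171, 94.5 and 156 with estradiol, 111, 66.5, 73.4 and 83.2 with tamoxifen, 76.7, 66.8, 80.0 and 84.7 with the combination, and 88.9, 91.7, 108 and 84.8 in the controls. Estradiol 3 fell within the controls, and all combination arrays lay just below them. GINS2 rose by 0.66 with estradiol (SE 0.21, adjusted p = 0.0292), a call lost in 6 of the 8 fits that left out 1 array of these arms. GINS3 signals were 177, 141, 147 and 210 with estradiol, 161, 150, 167 and 157 with tamoxifen, 105, 194, 114 and 192 with the combination, and 114, 104, 177 and 150 in the controls, with overlap throughout. The change of GINS3 with estradiol was 0.31 (95% interval -0.15 to 0.77). GINS4 averaged 81.0 with estradiol, 64.7 with tamoxifen, 66.2 with the combination and 81.3 in the controls, and its brightest probe set passed no test. A dimmer GINS4 probe set was lower with tamoxifen at -0.95 (adjusted p = 0.0213).

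Of the origin recognition complex, ORC3 rose and ORC4 fell with estradiol. ORC3 had 410, 360, 302 and 299 with estradiol, 283, 283, 306 and 291 with tamoxifen, 329, 262, 260 and 282 with the combination, and 248, 223, 264 and 225 in the controls. The estradiol and tamoxifen arrays were all above the controls. ORC3 was higher by 0.49 with estradiol (SE 0.12, adjusted p = 0.00812). The changes with tamoxifen, 0.27, and the combination, 0.23, had adjusted p = 0.148 and 0.213.

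ORC4 ran the other way in each treated arm, with 517, 472, 541 and 622 with estradiol, 594, 506, 606 and 504 with tamoxifen, 552, 525, 536 and 582 with the combination, and 836, 846, 800 and 710 in the controls. No treated array reached the lowest control. The changes were -0.57 with estradiol (SE 0.10, adjusted p = 0.00134), -0.53 with tamoxifen (SE 0.10, adjusted p = 0.00494) and -0.53 with the combination (SE 0.10, adjusted p = 0.00375). A second, dimmer ORC4 probe set was also lower with estradiol, by -0.50 (adjusted p = 0.0346), with arrays that overlapped. With the actin ratio as a covariate the ORC4 change with estradiol was -0.33 (adjusted p = 0.171).

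ORC2 had 470, 509, 534 and 470 with estradiol, 506, 395, 428 and 401 with tamoxifen, 404, 441, 419 and 437 with the combination, and 479, 397, 472 and 396 in the controls. The arms overlapped except that the combination lay below estradiol, and the change with estradiol was 0.19 (95% interval -0.04 to 0.41). ORC5 averaged 495 with estradiol, 430 with tamoxifen, 423 with the combination and 459 in the controls and passed no test.

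**Figure D2:**
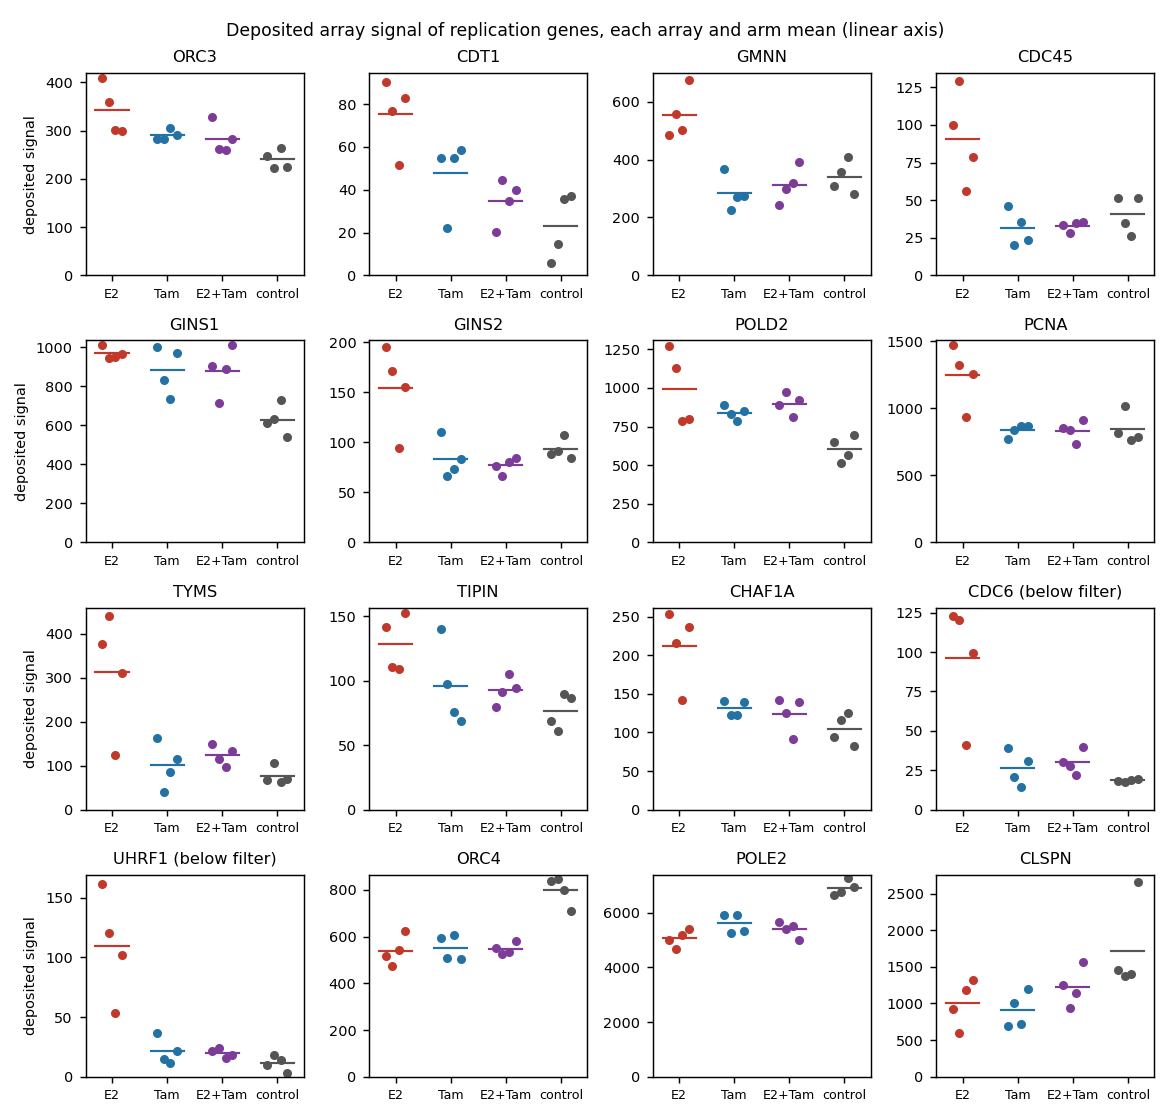
Deposited signal on each array for named replication genes, on linear axes of arbitrary units that start at 0, with 1 panel a gene and arms from left to right estradiol (E2), tamoxifen (Tam), combination (E2+Tam) and control. Points are arrays and bars are arm means. GMNN with estradiol, at 486 to 676, lies above every other array, whereas ORC4 and POLE2 are lower in each treated arm than in the controls.

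The polymerases did not move as a group. POLD2, the small subunit of polymerase delta, had 1270, 1127, 784 and 799 with estradiol, 889, 831, 789 and 852 with tamoxifen, 888, 971, 812 and 919 with the combination, and 650, 515, 566 and 698 in the controls. All treated arrays were above all controls, and estradiol 1 and 2 were highest. POLD2 rose by 0.69 with estradiol (SE 0.15, adjusted p = 0.0034), 0.47 with tamoxifen (SE 0.15, adjusted p = 0.0433) and 0.57 with the combination (SE 0.15, adjusted p = 0.0167). The call with tamoxifen was lost in 7 of 8 fits without 1 array.

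POLD3, an accessory subunit of the same enzyme, had 645, 675, 745 and 814 with estradiol, 657, 680, 725 and 645 with tamoxifen, 740, 506, 649 and 714 with the combination, and 855, 925, 755 and 858 in the controls. The tamoxifen and combination arrays were all below the controls, and 1 estradiol array overlapped them. POLD3 was lower with the combination, at -0.39 (SE 0.12, adjusted p = 0.0375), a call lost in 5 of 8 fits without 1 array, and had changes of -0.24 with estradiol and -0.32 with tamoxifen that missed the threshold (adjusted p = 0.158 and 0.0852). POLD1, the catalytic subunit, averaged 218 with estradiol, 198 with tamoxifen, 176 with the combination and 222 in the controls and passed no test.

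POLE2, a subunit of the leading-strand polymerase epsilon, gave 5010, 4678, 5196 and 5408 with estradiol, 5926, 5243, 5925 and 5321 with tamoxifen, 5639, 5407, 5501 and 4995 with the combination, and 6635, 6767, 7253 and 6920 in the controls. Each treated array was below each control. The changes were -0.44 with estradiol (SE 0.070, adjusted p = 0.000496), -0.30 with tamoxifen (SE 0.070, adjusted p = 0.0118) and -0.36 with the combination (SE 0.070, adjusted p = 0.00377). A second POLE2 probe set differed from it with estradiol. It had 120, 132, 57.1 and 120 with estradiol, 63.7, 49.6, 42.4 and 54.2 with tamoxifen, 42.3, 41.1, 55.0 and 62.2 with the combination, and 86.6, 59.2, 68.0 and 93.7 in the controls. There 3 estradiol arrays were the highest of all 16, and the change with estradiol was 0.42 (adjusted p = 0.232), opposite in sign to that of the bright probe set. Its changes with tamoxifen, -0.50, and the combination, -0.57, had the same sign as those of the bright one and missed the threshold (adjusted p = 0.186 and 0.127). Which of these probe sets follows the POLE2 transcript was not tested.

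Polymerase alpha starts new strands with primase. POLA1, its catalytic subunit, had 354, 365, 329 and 262 with estradiol, 278, 264, 276 and 288 with tamoxifen, 259, 233, 211 and 261 with the combination, and 276, 362, 264 and 303 in the controls. The combination arrays were lowest and lay below all other arms. POLA2 had 197, 157, 161 and 145 with estradiol, 172, 96.7, 112 and 146 with tamoxifen, 111, 155, 117 and 144 with the combination, and 204, 201, 180 and 166 in the controls. The combination was below every control, while the other arms overlapped them. Neither gene passed the threshold: the smallest adjusted p were 0.111 for POLA1 in the combination against estradiol and 0.0617 for POLA2 in tamoxifen against control.

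PCNA, the sliding clamp, had 1468, 1325, 935 and 1251 with estradiol, 770, 835, 866 and 870 with tamoxifen, 851, 834, 730 and 915 with the combination, and 819, 1013, 765 and 786 in the controls. Estradiol 3 was below the highest control, and the other 3 estradiol arrays were above everything else. PCNA rose by 0.54 with estradiol (SE 0.13, adjusted p = 0.007). Its changes with tamoxifen, -0.01, and the combination, -0.02, had 95% intervals of -0.29 to 0.27 and -0.30 to 0.26.

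The clamp loader subunits that were measured passed no test. RFC1 had 78.6, 62.8, 79.3 and 78.1 with estradiol, 81.5, 52.7, 55.5 and 53.6 with tamoxifen, 69.1, 56.9, 87.5 and 42.4 with the combination, and 67.2, 13.6, 72.2 and 76.9 in the controls. Control 2 stood far below the rest, so the change of 0.56 with estradiol has a 95% interval of -0.24 to 1.36. RFC5 had 146, 186, 160 and 129 with estradiol, 141, 114, 108 and 151 with tamoxifen, 143, 128, 167 and 144 with the combination, and 103, 104, 132 and 158 in the controls, and its change with estradiol was 0.32 (95% interval -0.04 to 0.68). The RFC5 arms overlapped, as did those of RFC2, which averaged 135 with estradiol, 120 with tamoxifen, 114 with the combination and 120 in the controls.

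The single-strand binding protein RPA coats unwound DNA. RPA2 had 579, 612, 515 and 532 with estradiol, 574, 527, 459 and 595 with tamoxifen, 480, 498, 482 and 595 with the combination, and 627, 794, 799 and 596 in the controls. All tamoxifen and combination arrays were below the controls, and 1 estradiol array overlapped them. RPA2 was lower with the combination, at -0.44 (SE 0.12, adjusted p = 0.025), a call lost in 5 of 8 fits without 1 array, with -0.32 in estradiol (adjusted p = 0.0705) and -0.38 in tamoxifen (adjusted p = 0.0557). RPA3 had 1014, 937, 979 and 1102 with estradiol, 909, 887, 968 and 978 with tamoxifen, 866, 792, 726 and 904 with the combination, and 966, 952, 926 and 929 in the controls. The combination arrays were lower than all estradiol and control arrays, and the changes of RPA3 did not pass.

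Deoxynucleotide supply was split by the brightest probe sets of its 2 genes tested. TYMS, thymidylate synthase, which makes the thymidine nucleotide, had 377, 440, 124 and 310 with estradiol, 163, 40.1, 86.5 and 115 with tamoxifen, 150, 115, 97.8 and 133 with the combination, and 66.8, 106, 63.8 and 70.3 in the controls. Estradiol arrays 1, 2 and 4 were far above all others and array 3 was only just above the highest control. TYMS rose by 1.85 (SE 0.39, adjusted p = 0.00325), 3.60-fold, the largest change with estradiol among the 29 genes. A second TYMS probe set rose by 1.46 (adjusted p = 0.00421). RRM1, the large subunit of ribonucleotide reductase, had 1293, 1196, 1210 and 1159 with estradiol, 1069, 1061, 1071 and 1178 with tamoxifen, 1028, 941, 921 and 1157 with the combination, and 1535, 956, 1369 and 1262 in the controls. Its controls spread over most of the range of the other arms, and this RRM1 probe set passed no test, with a change of -0.06 with estradiol (95% interval -0.31 to 0.20). A second, dimmer RRM1 probe set had 149, 124, 135 and 106 with estradiol and 91.7, 135, 90.2 and 82.2 in the controls. Its mean log2 was higher with estradiol, 7.05 against 6.68, opposite in sign to the bright one, with arrays that overlapped.

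The fork checkpoint genes moved apart. TIPIN, which steadies stalled forks, had 142, 111, 109 and 152 with estradiol, 140, 97.8, 76.0 and 68.9 with tamoxifen, 79.9, 91.3, 105 and 94.7 with the combination, and 69.0, 61.2, 89.6 and 86.4 in the controls. Every estradiol array was above the controls, and the other arms overlapped them. TIPIN rose by 0.71 (SE 0.21, adjusted p = 0.0202), a call lost in 4 of 8 fits without 1 array.

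CLSPN encodes claspin, which passes the replication stress signal to the kinase CHK1. It had 931, 594, 1183 and 1318 with estradiol, 689, 1013, 725 and 1194 with tamoxifen, 1251, 942, 1146 and 1568 with the combination, and 1455, 1381, 1400 and 2654 in the controls. The estradiol and tamoxifen arrays were all below the controls, of which control 4 was far highest. CLSPN was lower by -0.78 with estradiol (SE 0.27, adjusted p = 0.0442), a call lost in 5 of 8 fits without 1 array, and by -0.90 with tamoxifen (SE 0.27, adjusted p = 0.0366), a call lost in 4 of 8. A second CLSPN probe set was too dim for the tests, at 0.59 to 3.59 over all arrays.

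Chromatin assembly is the last step followed here. CHAF1A, the large subunit of chromatin assembly factor 1, had 254, 216, 142 and 236 with estradiol, 140, 122, 122 and 140 with tamoxifen, 142, 125, 91.5 and 140 with the combination, and 93.6, 116, 126 and 82.9 in the controls. Estradiol arrays were above all controls, and array 3 was level with the top of the tamoxifen and combination arms. CHAF1A rose by 0.97 (SE 0.19, adjusted p = 0.00236), and a second probe set by 0.91 (adjusted p = 0.00364). CHAF1B, its partner, was dim and scattered, with 83.0, 104, 19.8 and 55.7 with estradiol, 68.1, 29.9, 20.2 and 32.2 with tamoxifen, 6.01, 42.5, 39.1 and 39.9 with the combination, and 17.7, 68.4, 19.6 and 66.1 in the controls. The arms overlapped, and its change with estradiol, 0.58, has a 95% interval of -0.64 to 1.80.

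Of the 4 genes below the filter on dim probe sets, CDC6 and UHRF1 had the highest estradiol signals relative to control. CDC6, the helicase loader, had 123, 121, 41.0 and 99.7 with estradiol, 39.2, 20.9, 14.3 and 30.8 with tamoxifen, 30.0, 27.9, 22.3 and 40 with the combination, and 18.3, 17.5, 19.0 and 19.2 in the controls. UHRF1, which guides maintenance methylation to new DNA, had 161, 120, 53.6 and 102 with estradiol, 36.8, 14.8, 11.8 and 21.4 with tamoxifen, 21.5, 24.4, 15.7 and 18.2 with the combination, and 10.1, 18.1, 14.0 and 3.03 in the controls. For each, the estradiol arrays were above those of every other arm. In a fit with no filter, CDC6 was 2.01 higher with estradiol (adjusted p = 0.00083) and UHRF1 2.83 higher (adjusted p = 0.000216), both larger than the 1.85 of TYMS. A second CDC6 probe set changed by 2.35 (adjusted p = 0.00149) in that fit. ORC1, with 26.8 to 50.6 with estradiol and 15.5 to 29.3 in the controls, and RFC3, with 11.7 to 29.6 and 11.4 to 28.3, did not pass there (adjusted p = 0.121 and 0.857).

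**Figure D3:**
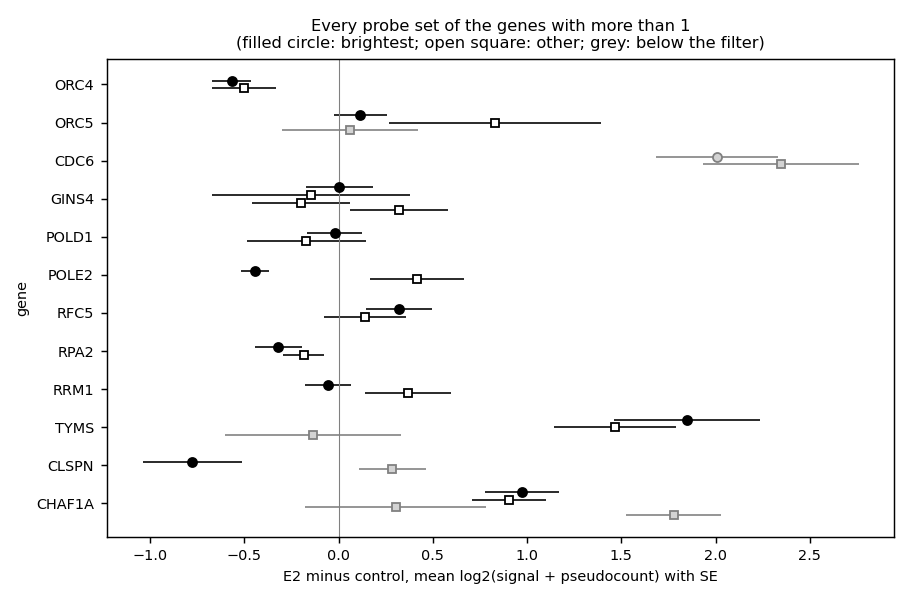
Changes with estradiol against control for genes with several probe sets, on the log2(signal + 4.80) scale, with bars of 1 SE; black circles are the brightest probe sets, open squares the others, and grey symbols those below the filter. The probe sets of TYMS and CHAF1A that were tested lie above 0, those of ORC4 below it, and those of POLE2 on opposite sides, at -0.44 and 0.42.

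The comparisons of tamoxifen and of the combination with placebo ask what each does to these genes; both use the same control arrays as estradiol. With tamoxifen 2 of the 29 genes were higher, GINS1 and POLD2, and 3 lower, ORC4, POLE2 and CLSPN, where 8.59% and 7.64% of all genes were higher and lower. With the combination GINS1 and POLD2 were higher and ORC4, POLD3, POLE2 and RPA2 lower, where 10.6% and 9.09% of all genes were. Epithelial markers were higher in 3 and 5 of 9 tested genes with tamoxifen and the combination, and stromal markers in 4 of 12 with each. T and NK cell markers were lower in 3 of 6 with tamoxifen and 4 of 6 with the combination, and the part of these changes was not tested. The median change was -0.072 with tamoxifen and -0.12 with the combination, against -0.018 and -0.013 over all genes tested. Tamoxifen arrays were all above the controls for 3 of 29 genes and all below for 5, against 11.2% and 11.6% of all genes. Combination arrays were all above for 1 and all below for 8, against 15.2% and 13.9%. With the actin ratio as a covariate 0 calls were left in either comparison, in limma fits that called 0.906% of all genes for tamoxifen and 2.83% for the combination. In those fits 3 and 5 of the 29 genes had an unadjusted p under 0.05, against 10 and 11 without the covariate. Over all 10705 genes, 3594 and 3767 had such a p in the limma fit without the covariate. Counts of all genes with such a p in the covariate fits are not given here.

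The comparison of the combination with estradiol asks what tamoxifen did when estradiol was given too. Of the 29 genes 4 were lower and 0 higher, where 0.878% of all genes were lower and 0.448% higher. GMNN was lower by -0.83 (SE 0.18, adjusted p = 0.0368), CDC45 by -1.29 (SE 0.28, adjusted p = 0.0396), GINS2 by -0.92 (SE 0.21, adjusted p = 0.0432) and PCNA by -0.56 (SE 0.13, adjusted p = 0.0488). At an unadjusted p under 0.05, 13 of 29 genes were lower and 0 higher in limma. Over all genes 1913 of 10705 had such a p, in either direction. The change was below 0 in 26 of 29 genes, with a median of -0.27 against -0.023 over all genes. Every combination array was below every estradiol array for 11 of 29 genes, against 6.38% of all genes. Without the 3 genes admitted through the estradiol arm, CDC45 among them, 3 of 26 were lower, with a median of -0.25. Combination arrays were then all below the estradiol arrays for 9 of 26 genes. The count at an unadjusted p is over the 29 genes, with these 3 among them. The calls were few and close to the threshold: 0 were left without estradiol 1, 2 or 4 or combination 1, 2 or 3, 1 without combination 4, and 6 were made without estradiol 3. As p was adjusted over all probe sets, these counts also depend on how many of all genes passed in each fit. Those shares are not given here. TYMS had the largest fall that missed the threshold, -1.18 (SE 0.39, adjusted p = 0.144), with a second probe set at -1.36 (adjusted p = 0.0523). With no filter UHRF1 was lower by -2.12 (adjusted p = 0.0267), and CDC6 had -1.45 (adjusted p = 0.0614).

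Tamoxifen alone was set against estradiol alone, with the same estradiol arrays. GMNN, at -0.97 (SE 0.18, adjusted p = 0.0289), and CDC45, at -1.41 (SE 0.28, adjusted p = 0.0343), were lower and 0 of 29 genes were higher in limma, where 0.56% and 0.149% of all genes were. At an unadjusted p under 0.05, 7 genes were lower and 0 higher in limma. Of all 10705 genes, 1560 had such a p, in either direction. The change was below 0 in 27 of 29 genes with a median of -0.22, against -0.027 over all genes, and 5 genes had all tamoxifen arrays below all estradiol arrays, against 4.55% of all genes. CDC45 was admitted through the estradiol arm, and without such genes 1 of 26 was lower, with a median of -0.21. Tamoxifen arrays were then all below the estradiol arrays for 4 of 26 genes. The count at an unadjusted p is over the 29 genes, such genes included. The count was 6 without estradiol 3, 4 without tamoxifen 1, and 0 without estradiol 1, 2 or 4 or tamoxifen 2, 3 or 4. Shares of all genes called in these fits are not given here.

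Between the combination and tamoxifen alone limma called 0 of the 29 genes, with 0% of all genes called. A single gene of the 29, RPA3 at -0.19 (SE 0.085), had an unadjusted p under 0.05 in limma, as had 396 of all 10705 genes. Each alternative setting made 0 calls here too. The intervals remain wide for some genes: that of CDT1 ran from -1.23 to 0.49 and that of TYMS from -0.41 to 1.25.

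The interaction asks whether the change from adding tamoxifen to estradiol differed from that of tamoxifen without it, as the difference of those differences. It was lower than 0 for CDT1, at -2.07 (SE 0.57, adjusted p = 0.0348), GINS1, at -0.63 (SE 0.18, adjusted p = 0.0341), and CHAF1A, at -1.06 (SE 0.28, adjusted p = 0.0267). It was above 0 for ORC4, at 0.56 (SE 0.15, adjusted p = 0.0272), and POLE2, at 0.39 (SE 0.10, adjusted p = 0.0243). CDT1 was lost in 11 of 16 fits without 1 array, GINS1 in 8, CHAF1A and ORC4 in 5 each and POLE2 in 1. Over all genes 4.77% were above 0 and 6.55% below. The median over the 29 genes was -0.32, against -0.014. CDT1 was admitted through the estradiol arm. Without the 3 genes so admitted, 2 of 26 were above 0 and 2 below, with a median of -0.26. For GINS1, ORC4 and POLE2 each treated arm stood on the same side of the controls, and the changes of the combination from either drug alone, -0.15 to 0.09, did not pass. For CDT1 and CHAF1A estradiol was highest and the combination lay below it. The count was 11 without estradiol 3 and 0 without estradiol 2, and it was 0 with the actin ratio as a covariate, where 6 genes had an unadjusted p under 0.05. Without the covariate 15 of the 29 genes and 3119 of all 10705 genes had such a p in limma. Shares of all genes in the fits without 1 array and with the covariate are not given here. Whether those losses and gains are particular to the replication genes was not tested.

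The animals of an arm differed. The score of the 29 genes, their mean log2 deviation from each gene's mean over all arrays, was 0.40, 0.33, 0.067 and 0.31 with estradiol, 0.092, -0.26, -0.16 and -0.065 with tamoxifen, -0.16, -0.13, -0.17 and -0.0056 with the combination, and -0.13, -0.13, -0.0020 and 0.015 in the controls. Estradiol 3 was the lowest of its arm and tamoxifen 1 the only tamoxifen array above 0. Estradiol 3 was lowest of its arm in 8 of the 11 genes that rose with estradiol and in 15 of all 33 annotated genes, against 33.8% of all genes tested. Tamoxifen 1 was highest of its arm in 17 of the 33, or 51.5%, against 35.3% of all genes, and tamoxifen 2 lowest in 17, against 28.8% of all genes.

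Estradiol 3 was also the lowest of its arm in proliferation markers. MKI67, which encodes Ki-67, had 167, 143, 70.2 and 161 with estradiol, 62.4, 34.6, 25.5 and 45.6 with tamoxifen, 42.9, 47.1, 41.3 and 56.2 with the combination, and 31.0, 39.2, 48.2 and 54.1 in the controls. For MKI67, too, estradiol 3 lay above all controls. The epithelial score was -0.19 in estradiol 3 and -0.43 in tamoxifen 2, each the lowest of its arm, and 0.88 in tamoxifen 1, the highest of its arm, as for the 29 genes. In estradiol 4 the epithelial score was highest, 0.91, and the smooth muscle score lowest, -3.16, and its score of the 29 genes, 0.31, was close to that of estradiol 2. The part of tissue makeup in this order was not tested. Without estradiol 4 and tamoxifen 1, the arrays of lowest muscle score, 27 of the 29 genes were tested. Of these 13 passed with estradiol against control and 1 in the combination against estradiol.

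**Figure D4:**
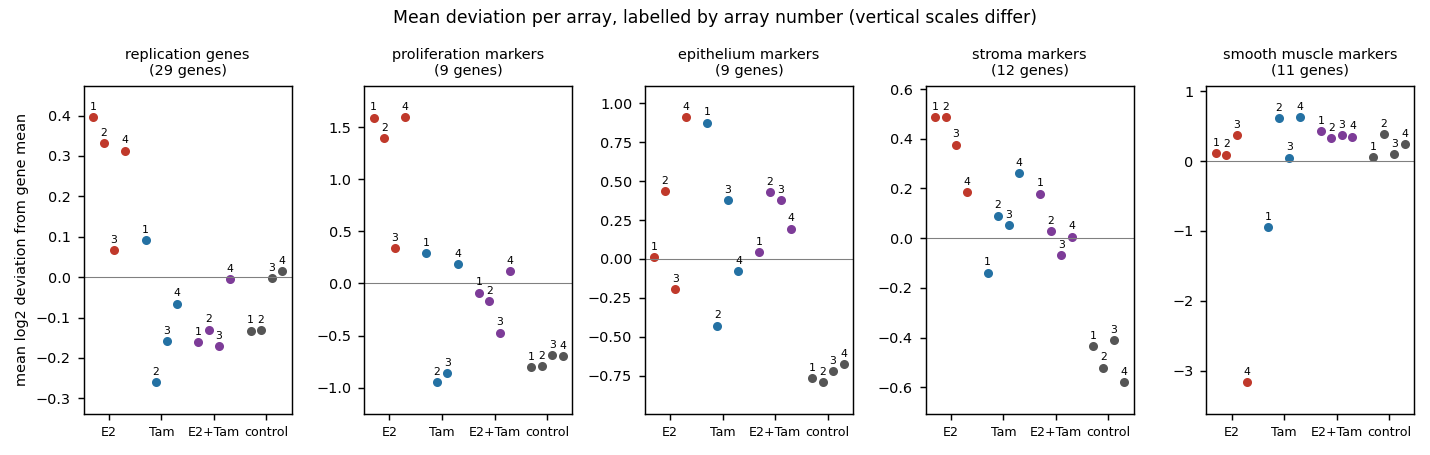
Score of each array, the mean log2 deviation from each gene's mean over all arrays, for the 29 replication genes and for marker lists, with arms from left to right estradiol (E2), tamoxifen (Tam), combination (E2+Tam) and control, and vertical scales that differ. Numbers are array numbers. Estradiol 3 is lowest of its arm for the replication genes, at 0.067, and for the proliferation markers, at 0.34, while estradiol 4 is lowest for smooth muscle, at -3.16.

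Other genes of the pathway were read from 8 lists of 129 symbols, of which 89 were tested. The filter that admitted them counted the estradiol arm too. The list counts were not repeated without genes that passed only through that arm. With estradiol 34 were higher and 7 lower, with tamoxifen 4 and 7, and with the combination 7 and 6; the shares over all genes were 16.5% and 13.2%, 8.59% and 7.64%, and 10.6% and 9.09%. The median changes were 0.26, 0.055 and 0.013. In the combination against estradiol 1 was higher and 11 lower, with a median of -0.25, where 0.448% and 0.878% of all genes were higher and lower. Among origin firing genes 4 of 11 rose with estradiol, led by the cyclin genes CCNE2, at 1.08, and CCNE1, at 1.24, and by MCM10, at 1.54. Of 10 E2F and pocket protein genes 5 rose, among them E2F2 at 1.05 and the E2F target MYBL2 at 1.36, and RBL2, a pocket protein gene, fell by 0.30. E2F2 and MYBL2 were lower in the combination than with estradiol, at -0.91 (adjusted p = 0.0374) and -1.27 (adjusted p = 0.0368).

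Nucleotide genes beyond TYMS and RRM1 moved in both directions. Of 12 further deoxynucleotide genes 5 rose with estradiol, including DUT, the dUTPase that keeps uracil out of DNA, at 0.66, and the folate enzyme gene MTHFD1, at 0.68. RRM2B, the p53-induced subunit of ribonucleotide reductase, was lower at -0.98 (SE 0.23, adjusted p = 0.00721). Of 13 purine and pyrimidine synthesis genes 4 rose, led by ATIC at 0.61 and GMPS at 0.60, and CTPS2 was lower at -0.53. With estradiol 16.5% of all genes were higher and 13.2% lower. UCK2 and DTYMK, kinases of nucleosides and nucleotides, rose with estradiol and were lower in the combination than with estradiol, at -0.97 and -0.63 (adjusted p = 0.0342 and 0.0423). In the combination against estradiol 0.878% of all genes were lower.

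Of 12 fork genes outside the set, POLD4, at -0.55, and TOP1, at -0.55, were lower with estradiol, and the others did not pass. POLD4 was lower with tamoxifen too, at -0.62, and with the combination, at -0.51. In replication-coupled chromatin 6 of 10 genes rose, among them the histone chaperone genes NASP, at 0.62, and ASF1B, at 1.05, and the helicase gene HELLS, at 1.34. DNMT1, the maintenance DNA methyltransferase that UHRF1 recruits, was lower at -1.55 (SE 0.25, adjusted p = 0.000536). Of 12 checkpoint genes CHEK1, the kinase that claspin serves, rose by 1.62, RAD51AP1 by 0.90, and BLM fell by 0.47. Thus 2 of the 12 checkpoint genes were higher and 1 lower, and 0 and 2 of the 12 fork genes. Over all genes 16.5% were higher and 13.2% lower with estradiol. Of the 9 proliferation markers 8 rose with estradiol, and 3 were lower in the combination than with estradiol, under the same filter that counted the estradiol arm. In the combination against estradiol 0.878% of all genes were lower.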

How the data were processed

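Total RNA of endometrium was hybridised to 1-colour arrays, 1 per animal, and arrays were assigned to arms by their titles. The authors deposited linear intensity values, made with MAS5 per the submitters' processing notes, which also name GCOS and Affymetrix Expression Console, without versions or scaling target. The mean without 2% of values at each end was 250.01 on every array, so the values were not scaled again; MAS5 leaves dim probe sets noisy. Of 52865 probe sets, 99 controls were left out, signals were taken to log2(signal + 4.80), where 4.80 is the 10th percentile of all values, and the dimmest 40% by mean were dropped, which kept means above 5.36. On this scale the changes of dim genes are understated. limma 3.58.1 in R 4.3.3 fitted a mean for each arm to all 16 arrays (12 residual degrees of freedom, eBayes with a variance trend). The code was tested on simulated data.

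In the platform annotation 24969 probe sets have 1 symbol and 361 have several; those were not named. Probe sequences were not used, so cross-hybridisation was not examined, and no genome positions or sequences are given. Counts without genes that passed the filter only with the estradiol arm counted were added after seeing the data. The motif search in promoters was not run. The genes and lists were chosen with earlier results of these data known. Values of every array are given for up to 3 genes of each role with the smallest p for estradiol, for genes called against the prevailing direction, and for up to 3 with the smallest p in each other comparison; CDC6, UHRF1 and the second POLE2 probe set were added after their values were seen. The further pathway genes named are among those with the smallest p of their list, except RBL2 and ASF1B, added after their values were seen. Samples are separate animals, and their numbers are not said to pair them across arms: over 24 same-numbered pairs the correlation of residuals ran from -0.27 to 0.095, with 0 over 0.1.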

Additional observations from a re-analysis of the deposited data

Results flagged for a closer look

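An array far from the others of its arm was looked for by Dixon's test in 132 groups of 4, the 33 annotated genes in 4 arms, and 8 were found, where chance gives about 1 in 20 groups. RFC1 had 3 of them: estradiol 2 at 62.8 below 78.1 to 79.3, tamoxifen 1 at 81.5 above 52.7 to 55.5, and control 2 at 13.6 below 67.2 to 76.9. CDT1 had tamoxifen 2 at 22.1, below 54.6 to 58.7. ORC1 had tamoxifen 4 at 22.9, above 16.6 to 17.4, and RRM1 had tamoxifen 4 at 1178, above 1061 to 1071. CLSPN had control 4 at 2654, above 1381 to 1455, and CHAF1B had combination 1 at 6.01, below 39.1 to 42.5.

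The effect of tamoxifen with estradiol differed from its effect without estradiol, by the interaction term of limma, for 5 genes: CDT1 at -2.07, CHAF1A at -1.06, GINS1 at -0.63, POLE2 at 0.39 and ORC4 at 0.56 on the log2 scale. The POLE2 term has the opposite sign when all its probe sets are averaged, at -0.047. CDT1 passed the filter only because the estradiol arm was counted in it. Without the 3 genes so admitted, 2 of 26 were above 0 and 2 below.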

How the results depend on the processing

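The 203 values of 29 genes in 7 comparisons were recomputed under the other settings, 4172 results in all: 3813 kept sign and side of the threshold, 192 lost the call and 36 gained one. The sign changed in 131, of which 130 missed the threshold both ways; the other was POLE2 in the interaction, at -0.047 with the mean of all probe sets. Of 36 calls, those of GMNN and CHAF1A with estradiol held in every setting. Estradiol against control gave 14 calls, 2 with the actin ratio as a covariate, 10 to 15 in the other settings (the 15 with no filter are of 33 genes and hold 13 of the 29), and 11 to 14 without 1 array. Tamoxifen against control gave 5, 0 with the actin covariate, 3 with no filter, with only the arms compared, and without estradiol 4 and tamoxifen 1, and 3 to 5 without 1 array, with 3 where control 1 or tamoxifen 1, 3 or 4 was left out. The combination against control gave 6, 0 with the actin covariate, and 4 to 6 without 1 array.

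The combination against estradiol gave 4, with 1 for no filter or only the arms compared, each a gene outside the 29 that the filter then let in, with 0 of the 29 left, 1 without estradiol 4 and tamoxifen 1, 2 with the dimmest 60% left out, array-median scaling or the actin covariate, 0 with the replicate block, and 0 to 6 without 1 array. Tamoxifen against estradiol gave 2, with 1 for the dimmest 60% left out or the genes admitted through the estradiol arm left out, 3 with no filter, of which 1 is among the 29, 0 for only the arms compared, and 0 to 6 without 1 array. The interaction gave 5, with 5 under no filter, of which 3 are among the 29, 2 for array-median scaling or estradiol 4 and tamoxifen 1 left out, 0 for the actin covariate, 3 for the mean of probe sets, and 0 to 11 without 1 array. The combination against tamoxifen gave 0 throughout. The numbers in the titles do not pair the animals, and the replicate block gave 14 calls for estradiol, 5 for tamoxifen and 5 for the combination, each against control, 2 between tamoxifen and estradiol, and 5 in the interaction. Dropping dim probe sets removes genes by construction. For the other settings the cause was not tested. The counts of this section stand without the share of all genes called under each setting. The promoter motif count was not run. Dim signals limit CDT1, CHAF1B and the 4 genes below the filter most.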
